A study of Mus musculus with 9 samples.

Results

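The 37 genes described here act in the folding of secretory proteins in the endoplasmic reticulum (ER) and in the unfolded protein response (UPR), and were chosen by name from the 24062 genes of a read count table of mouse embryonic fibroblasts. They comprise Xbp1 and 4 stress sensors, 2 proteases that process a sensor, 9 chaperones and co-chaperones, 2 lectin chaperones, 5 disulfide isomerases, 10 genes of ER-associated degradation (ERAD), 3 collagen folding genes and 1 subunit of the translocation channel. Mouse embryonic fibroblasts (MEFs) are primary cultures of embryonic connective tissue, and these came from C57BL/6 mice. The p21 group carried a lentivirus that overexpresses p21, the p16 group one that overexpresses p16, and the control group an empty vector, with 3 RNA-seq libraries in each group. The products of both delivered genes inhibit cyclin-dependent kinases and hold back the cell cycle. Cells of all groups carried a lentivirus, are labelled non-senescent and were harvested on day 4, and the promoters of the vectors are not given in the sources used here. The labels do not say whether the replicates came from separate embryos or cultures, so p-values measure the spread between these libraries, which may be technical.

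Proteins that enter the ER are bound there by chaperones, gain disulfide bonds through disulfide isomerases, and are sent for degradation through ERAD when they fail to fold. When unfolded proteins accumulate, the ER membrane sensors IRE1 (Ern1), PERK (Eif2ak3) and ATF6 start the UPR: IRE1 splices Xbp1 mRNA into the form that encodes an active transcription factor, PERK slows translation, and ATF6 is cut by site-1 and site-2 protease to release its own transcription factor domain. Fibroblasts are known for a large load of collagen in the ER, which needs chaperones and prolyl isomerases of its own.

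Many genes of ER folding are known to carry an ER stress response element (ERSE) in the promoter, which binds NF-Y together with ATF6 or XBP1. RefSeq promoters (GRCm38.p6, from 250 bases before to 50 bases after the start) were found for 31 of the 37 genes, which had 33 promoters. They were searched on both strands for ERSE, written as CCAAT, 9 bases of any kind and CCACG. It was present in 8 of 33 promoters of these genes (24.2%), against 39 of 32851 promoters of all genes (0.119%). The related ERSE-II, written as ATTGG, 1 base of any kind and CCACG, was present in 2 of 33 (6.06%), those of Herpud1 and Dnajb11, against 12 of 32851 (0.0365%). The UPR element TGACGTGG was found in 0 of 33 and in 222 of 32851 (0.676%). None of these promoters held both ERSE and ERSE-II. The windows below are from 4 genes that passed the test between p21 and empty vector and from Calr, which did not, so that promoters of genes that were lower, higher and not called can be read side by side. Capitals mark the 2 conserved parts of ERSE, each sequence reads 5′ to 3′ on the strand of its gene, and where the match lies on the other strand the parts read CGTGG and ATTGG.
Creld2, chr15:88819500-88819558, plus strand: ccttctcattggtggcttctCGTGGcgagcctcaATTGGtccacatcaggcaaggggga
Hsp90b1, distal match, chr10:86705618-86705676, minus strand: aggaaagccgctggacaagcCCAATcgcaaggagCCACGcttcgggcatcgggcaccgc
Hsp90b1, proximal match, chr10:86705513-86705571, minus strand: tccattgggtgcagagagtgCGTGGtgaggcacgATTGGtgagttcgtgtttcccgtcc
Pdia6, chr12:17266471-17266529, plus strand: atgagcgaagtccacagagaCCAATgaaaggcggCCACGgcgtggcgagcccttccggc
Syvn1, chr19:6046512-6046570, plus strand: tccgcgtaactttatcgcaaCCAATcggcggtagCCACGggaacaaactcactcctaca
Calr, chr8:84847055-84847113, minus strand: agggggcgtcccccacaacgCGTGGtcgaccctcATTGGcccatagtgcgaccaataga

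The libraries held 44455730 to 63152239 counts, and all 37 genes passed the filter on low counts that left 14223 genes for testing. The delivered genes matched the labels: Cdkn1a, which encodes p21, averaged 1604.7 ± 172.4 CPM (counts relative to the TMM-scaled library total) in p21 libraries and 360.2 ± 12.8 CPM in empty vector libraries (SD, n = 3 each), and Cdkn2a, which encodes p16, averaged 1731.4 ± 178.9 CPM in p16 libraries and 37.9 ± 3.86 CPM in empty vector libraries (SD, n = 3 each). Endogenous and delivered copies, and all transcripts counted under the gene symbol, are summed in these rows, so the Cdkn2a values are not a measure of p16 transcripts alone. The second principal component, with 18.9% of the variance, separated replicate 3 of every group from replicates 1 and 2, so counts of the genes of interest are also given from replicates 1 and 2 only. The fibroblast markers Col1a1, Col1a2 and Vim stood between 4897.6 and 15890.7 CPM, whereas Dcn, at 2.26 to 4.12 CPM, and Lum, at 0.412 to 1 CPM, were near absent in every library.

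The abundance of these transcripts spanned a wide range. Per kilobase of exon, the collagen chaperone gene Serpinh1 was the highest in empty vector libraries, followed by P4hb, Calr, Pdia3 and Hsp90b1, which encode abundant soluble proteins of the ER lumen. Among the lowest were the sensors Ern1 (2.5 CPM per kilobase) and Eif2ak3 (5.18 CPM per kilobase), and the lowest was the derlin gene Derl3 (0.164 CPM per kilobase). Summed over the 37 genes, the level was 13777.9 to 14057.4 CPM in p21 libraries, 13848.1 to 14252.6 CPM in p16 libraries and 13691.7 to 14044.3 CPM in empty vector libraries. The 3 ranges overlapped. With TMM each p16 library lay above the empty vector library of its number, and with library totals alone this order reverses. The TMM factors were 0.9984, 0.9958 and 0.9969 for p16 libraries and 1.018, 1.02 and 1.018 for empty vector libraries.

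Setting p21 against the empty vector asks how ER folding and UPR transcripts differ once p21 is supplied. The 37 genes changed in both directions: 10 rose, 7 fell and 20 did not pass the test (edgeR adjusted p under 0.05 over all genes tested). Those that rose were the exchange factor gene Sil1, the co-chaperone gene Dnajb9, the disulfide isomerase genes P4hb, Pdia3 and Pdia5, the ERAD genes Edem3, Syvn1 and Os9, and the collagen prolyl isomerase genes Fkbp10 and Fkbp14. Those that fell were Xbp1, the protease gene Mbtps2, the chaperone genes Hsp90b1, Hyou1, Manf and Creld2, and the disulfide isomerase gene Pdia6. The 17 called genes are 45.9% of the 37, against 39.9% of all genes tested, and the share of higher calls was 27% against 19.8% and of lower calls 18.9% against 20.1%. These shares are near those over all genes. The median log2 fold change of the 37 was 0.02, and their median absolute log2 fold change was 0.10, against 0.19 over all genes tested, so the differences were small in size. Scaling by library totals alone shifted the median of all genes by -0.05 on the log2 scale and gave 2173 higher and 3734 lower genes, against 2816 higher and 2865 lower with TMM. Under that scaling 7 of the 37 rose and 11 fell, and the calls of P4hb (edgeR adjusted p = 0.354), Pdia3 (edgeR adjusted p = 0.243) and Syvn1 (edgeR adjusted p = 0.106) were lost.

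The p16 comparison asks the same of p16. Of the 37 genes, 4 rose, 2 fell and 31 did not pass the test. Sil1, Pdia5, Fkbp10 and Fkbp14 rose, and Hyou1 and Creld2 fell. Both comparisons use the same empty vector libraries. With single libraries left out the p16 counts were as low as 1 higher and 0 lower. This was the case without empty vector replicate 1, empty vector replicate 2 or p16 replicate 2. Over all genes tested, 826, 921 and 759 genes then passed, against 1616 with all libraries. The p16 counts were 2 higher and 0 lower without p16 replicate 3, where 984 of all genes passed. They were 3 higher and 1 lower without empty vector replicate 3, p21 replicate 1 or p16 replicate 1. Over all genes tested, 1167, 1469 and 1070 genes then passed. The called share was 16.2% of the 37, against 11.4% of all genes tested, with higher calls at 10.8% against 5.8% and lower calls at 5.41% against 5.56%. Their median absolute log2 fold change was 0.06, against 0.11 over all genes. With library totals alone, 617 genes were higher and 1235 lower with p16, against 825 and 791 with TMM, and 3 of the 37 rose and 4 fell.

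The direct comparison of p21 with p16 asks where the 2 inhibitors differ. Of the 37 genes, Edem3, Fkbp10 and Fkbp14 were higher with p21, Xbp1 and Serpinh1 were lower with p21, and 32 did not pass the test. The called share was 13.5% of the 37, against 13.1% of all genes tested, with higher calls at 8.11% against 6.15% and lower calls at 5.41% against 6.91%. No call remained without p21 replicate 1, p16 replicate 1 or p16 replicate 3, and only 1 gene was higher and 0 lower without p16 replicate 2. Over all genes tested, calls in these settings fell to 1078, 1074, 1244 and 1151 in the order named, against 1858 with all libraries. With library totals alone, 735 genes were higher and 1254 lower with p21 than with p16, against 875 and 983 with TMM. Same-numbered libraries of the 3 groups varied together, and with the replicate number as a block 13 of the 37 rose and 8 fell with p21, 5 rose and 4 fell with p16, and 5 were higher and 3 lower in p21 against p16. Of all 14223 genes tested, the block called 3410 higher and 3446 lower with p21. It called 1602 higher and 1442 lower with p16, and 1566 higher and 1648 lower in p21 against p16. From replicates 1 and 2 only, 7 rose and 6 fell with p21, 3 rose and 1 fell with p16, and 3 were higher and 2 lower in p21 against p16. Of the 14329 genes tested in that setting, 2711 were higher and 2809 lower with p21. With p16, 801 were higher and 714 lower, and in p21 against p16, 918 were higher and 982 lower.

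**Figure D1:**
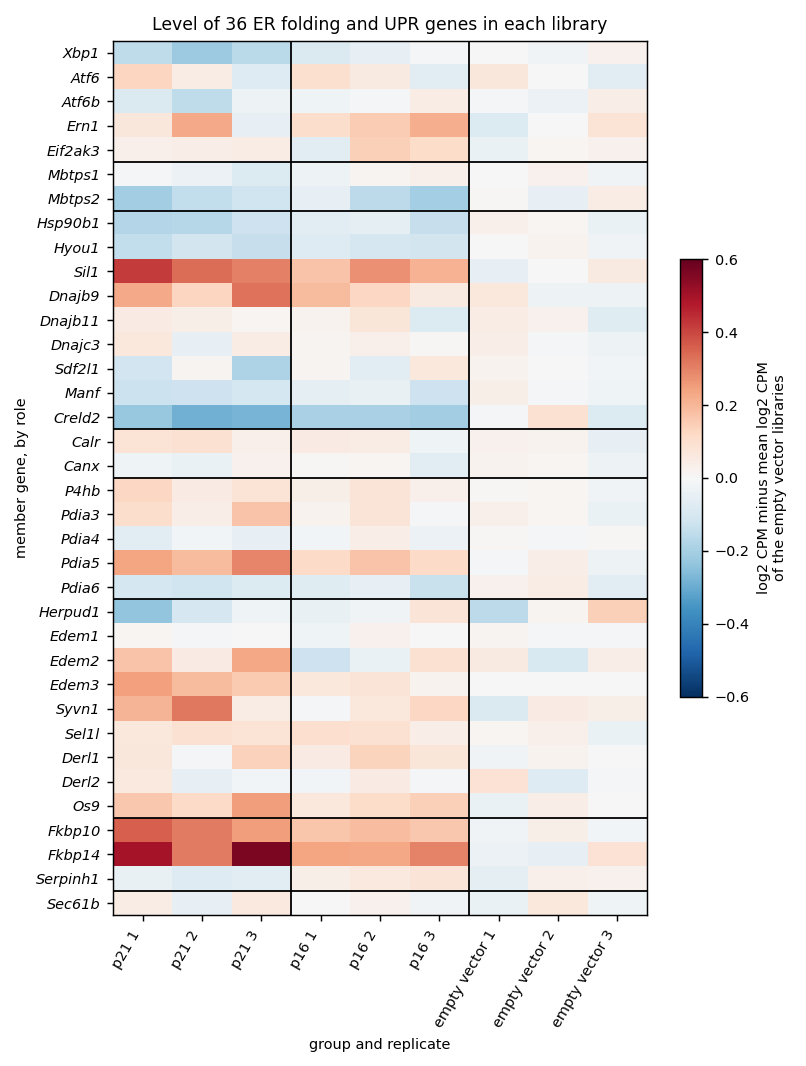
Level of 36 of the 37 genes in each of the 9 libraries, as log2 CPM minus the mean log2 CPM of the 3 empty vector libraries (colour, red higher and blue lower), with genes in rows by role and libraries in columns by group; Derl3, at 0.127 to 0.408 CPM, is left out. Fkbp14, Fkbp10, Sil1 and Pdia5 are red and Creld2, Hyou1 and Hsp90b1 blue in all p21 and p16 libraries, and Xbp1 is blue in all p21 libraries.

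Of the 5 genes for the transcription factor and the sensors, Xbp1 alone passed the test with p21 (20%, against 39.9% of all genes tested). Xbp1 (chromosome 11, 5520659 to 5525893, GENCODE M21 on GRCm38) had 116.3, 111.3 and 115.7 CPM in p21 libraries, 121.6, 124.8 and 128.2 CPM in p16 libraries, and 128.9, 127.4 and 131.5 CPM in empty vector libraries. All p21 libraries lay below all p16 and all empty vector libraries, while p16 and empty vector libraries overlapped. Xbp1 had a log2 fold change of -0.18 ± 0.0354 (SE) with p21 (0.885-fold, edgeR adjusted p = 0.00179), -0.05 ± 0.0353 with p16 (edgeR adjusted p = 0.405) and -0.13 ± 0.0354 in p21 against p16 (edgeR adjusted p = 0.0356). Gene counts sum the spliced and the unspliced form of Xbp1, so the values say nothing on the share that was spliced.

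Atf6, the sensor that is itself a transcription factor, had 84.5, 79.6 and 73.2 CPM in p21 libraries, 82.6, 80 and 73.7 CPM in p16 libraries, and 80.9, 77.2 and 73.5 CPM in empty vector libraries. Its values overlapped between all groups, with a log2 fold change of 0.03 ± 0.0605 with p21 (edgeR adjusted p = 0.682). The paralogue Atf6b had 55.5, 53.2 and 57.9 CPM in p21 libraries, 58.0, 58.8 and 60.9 CPM in p16 libraries, and 58.7, 57.7 and 60.7 CPM in empty vector libraries. The p21 libraries of Atf6b were at the low end and overlapped the empty vector range, with a log2 fold change of -0.09 ± 0.0448 (edgeR adjusted p = 0.14, and 0.0237 with library totals alone).

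Ern1, which encodes IRE1, had 21.4, 23.9 and 19.7 CPM in p21 libraries, 21.9, 22.6 and 23.7 CPM in p16 libraries, and 19.3, 20.4 and 21.6 CPM in empty vector libraries. The p16 libraries lay above the empty vector libraries by a small gap, and the p21 libraries spread across both ranges. Ern1 had a log2 fold change of 0.08 ± 0.0711 with p21 (edgeR adjusted p = 0.375) and 0.16 ± 0.0708 with p16 (edgeR adjusted p = 0.182). Eif2ak3, which encodes PERK, had 31.8, 32.1 and 32.2 CPM in p21 libraries, 29.8, 34.4 and 33.6 CPM in p16 libraries, and 30.4, 31.4 and 31.8 CPM in empty vector libraries. The groups lay within a narrow band, and the log2 fold change with p21 was 0.04 ± 0.0531 (edgeR adjusted p = 0.603). With p16, 0 of these 5 genes passed the test in edgeR, DESeq2 or limma-voom, against 11.4% of all genes tested in edgeR. Of the 5, 1 had an unadjusted edgeR p under 0.05.

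Of the 2 sensor-processing proteases, Mbtps2 alone passed the test with p21, against 39.9% of all genes tested. Both estimates were below 0, and a difference between the 2 genes was not tested. Mbtps1, which encodes site-1 protease, had 191.3, 188.2 and 181.9 CPM in p21 libraries, 188.6, 194.6 and 196.5 CPM in p16 libraries, and 192.1, 195.9 and 189.6 CPM in empty vector libraries. These ranges overlapped, and the log2 fold change with p21 was -0.04 ± 0.0321 (edgeR adjusted p = 0.334, and 0.0377 with library totals alone). Mbtps2, which encodes site-2 protease, had 24.9, 26.0 and 26.5 CPM in p21 libraries, 27.9, 25.8 and 25.0 CPM in p16 libraries, and 28.9, 27.8 and 29.7 CPM in empty vector libraries. All p21 libraries were below the empty vector libraries, and the p16 libraries spanned the gap. For Mbtps2 the log2 fold change was -0.16 ± 0.0519 with p21 (edgeR adjusted p = 0.0291) and -0.14 ± 0.0517 with p16 (edgeR adjusted p = 0.117). The p21 call was lost without empty vector replicate 1 or 3 or p21 replicate 1 or 2 (edgeR adjusted p up to 0.111) and with replicates 1 and 2 only (edgeR adjusted p = 0.0688). Mbtps2 shares 28.4% of its exon bases with Yy2 on the same strand, so its counts may be split or hold reads of that gene.

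Among the 9 chaperones and co-chaperones, 4 fell and 2 rose with p21 (44.4% and 22.2%, against 20.1% lower and 19.8% higher over all genes tested), and 2 fell and 1 rose with p16 (22.2% and 11.1%, against 5.56% lower and 5.8% higher). Creld2, an ER stress-induced gene for a protein with disulfide isomerase activity (chromosome 15, 88819646 to 88826683), fell the most of the called genes. It had 57.4, 55.0 and 55.4 CPM in p21 libraries, 58.6, 58.8 and 58.1 CPM in p16 libraries, and 66.8, 71.6 and 63.5 CPM in empty vector libraries. Every p21 library was below every p16 library, and both groups were below all empty vector libraries. For Creld2 the log2 fold change was -0.27 ± 0.0476 with p21 (0.831-fold, edgeR adjusted p = 8.03e-04) and -0.20 ± 0.0475 with p16 (0.869-fold, edgeR adjusted p = 0.0181). Between p21 and p16 it was -0.06 ± 0.0477 (edgeR adjusted p = 0.426). Its p16 call was lost without empty vector replicate 1 or 2 or p16 replicate 2 or 3 (edgeR adjusted p up to 0.0788).

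Hsp90b1, which encodes the ER HSP90 protein GRP94 (chromosome 10, 86690209 to 86705509), had 1444.3, 1447.0 and 1495.6 CPM in p21 libraries, 1555.7, 1569.5 and 1482.4 CPM in p16 libraries, and 1666.0, 1643.1 and 1585.8 CPM in empty vector libraries. All p21 and all p16 libraries lay below the empty vector libraries, and p16 replicate 3 lay within the p21 range. The log2 fold change of Hsp90b1 was -0.16 ± 0.0337 with p21 (0.896-fold, edgeR adjusted p = 0.00261) and -0.09 ± 0.0337 with p16 (edgeR adjusted p = 0.12, and 0.0318 with the replicate block). Hyou1, which encodes the GRP170 chaperone (chromosome 9, 44379490 to 44392369), had 289.3, 297.4 and 291.5 CPM in p21 libraries, 303.5, 299.2 and 297.5 CPM in p16 libraries, and 320.2, 325.4 and 316.2 CPM in empty vector libraries. The 3 groups did not overlap. For Hyou1 the log2 fold change was -0.13 ± 0.0277 with p21 (0.913-fold, edgeR adjusted p = 0.00241) and -0.10 ± 0.0276 with p16 (0.936-fold, edgeR adjusted p = 0.0436), and the p16 call was lost without any 1 library other than p21 replicate 2 or 3 (edgeR adjusted p up to 0.156).

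Manf, whose product is an ER protein released under stress, averaged 153.0 ± 1.51 CPM in p21 libraries, 158.0 ± 4.63 CPM in p16 libraries and 166.2 ± 3.79 CPM in empty vector libraries (SD, n = 3 each). Its log2 fold change was -0.12 ± 0.0335 with p21 (edgeR adjusted p = 0.0132, but 0.0641 without empty vector replicate 1) and -0.07 ± 0.0335 with p16 (edgeR adjusted p = 0.19). Manf shares 8.85% of its exon bases and Hsp90b1 10.3% with genes on the opposite strand, whose reads this library kit does not separate.

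Sil1, an exchange factor that releases substrates from the HSP70 chaperone of the ER, went the other way. It had 30.1, 28.4 and 27.8 CPM in p21 libraries, 25.4, 27.2 and 26.0 CPM in p16 libraries, and 21.8, 22.5 and 23.3 CPM in empty vector libraries. No library of one group overlapped another group, and p21 was the highest. For Sil1 the log2 fold change was 0.35 ± 0.0501 with p21 (1.28-fold, edgeR adjusted p = 1.43e-04), 0.22 ± 0.0501 with p16 (1.16-fold, edgeR adjusted p = 0.0162) and 0.14 ± 0.0497 in p21 against p16 (edgeR adjusted p = 0.0964). Its p16 call was lost without empty vector replicate 1 or 2 or p16 replicate 2 (edgeR adjusted p up to 0.0852). Hyou1 and Sil1 are both known as exchange factors of that HSP70 chaperone, and these counts moved in opposite directions.

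Dnajb9, which encodes the J-domain co-chaperone ERdj4 and is a known XBP1 target, averaged 20.8 ± 1.42 CPM in p21 libraries, 19.3 ± 0.891 CPM in p16 libraries and 17.7 ± 0.66 CPM in empty vector libraries (SD, n = 3 each). Its log2 fold change was 0.23 ± 0.0627 with p21 (edgeR adjusted p = 0.0111, but 0.0913 with replicates 1 and 2 only) and 0.12 ± 0.0627 with p16 (edgeR adjusted p = 0.236). The other co-chaperone genes, Dnajb11, Dnajc3 and Sdf2l1, did not pass the test in any comparison.

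**Figure D2:**
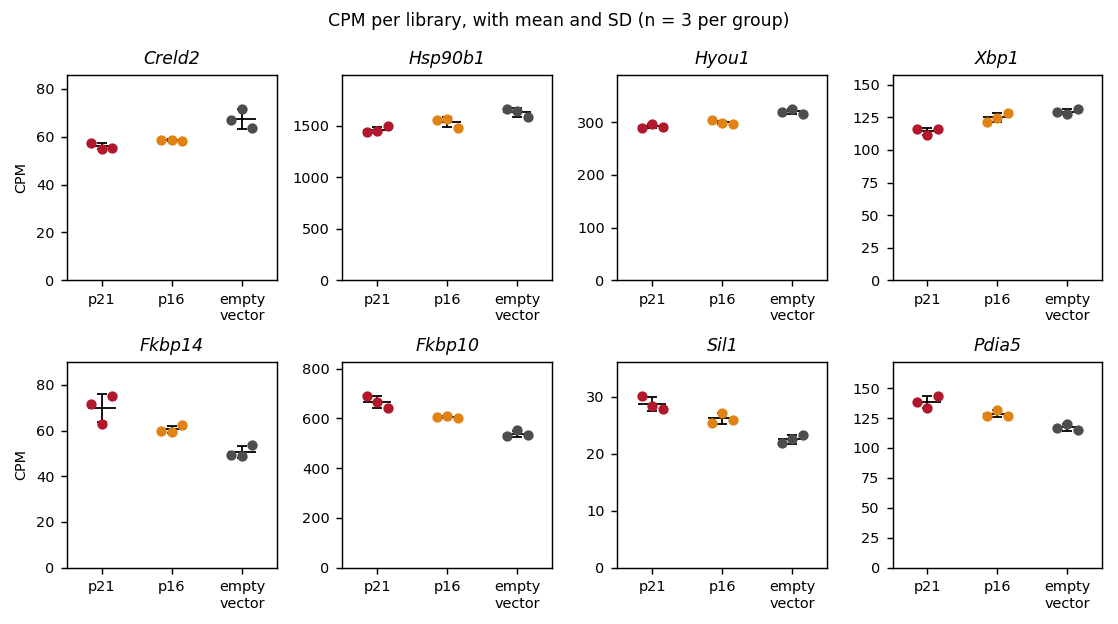
CPM (TMM-scaled) of 8 genes in each library, with 1 point per library and lines for the mean and SD of the 3 libraries in the p21, p16 and empty vector groups. Creld2, Hsp90b1 and Hyou1 lie lower and Fkbp14, Fkbp10, Sil1 and Pdia5 higher in all p21 and p16 libraries than in any empty vector library, whereas the p16 libraries of Xbp1 overlap the empty vector libraries.

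The lectin chaperone genes Calr and Canx, whose products hold glycoproteins during folding, did not pass the test with p21: 0 of 2 were called by edgeR, DESeq2 or limma-voom and 0 had an unadjusted edgeR p under 0.05. Over all genes tested, edgeR called 39.9% with p21, and 2 genes are too few to set against that share. Calr averaged 1545.4 ± 34.6 CPM in p21 libraries and 1474.8 ± 43.1 CPM in empty vector libraries (SD, n = 3 each), a log2 fold change of 0.07 ± 0.0347 (edgeR adjusted p = 0.144, and 0.0309 with the replicate block). Canx averaged 733.0 ± 17.7 CPM in p21 libraries and 740.6 ± 14.2 CPM in empty vector libraries (SD, n = 3 each).

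The 5 disulfide isomerases, which form and rearrange disulfide bonds, split with p21 into 3 that rose (P4hb, Pdia3 and Pdia5), 1 that fell (Pdia6) and 1 that was not called (Pdia4), against 19.8% higher and 20.1% lower over all genes tested. With library totals alone 1 rose and 2 fell, among them Pdia4 (edgeR adjusted p = 0.0271), against 2173 higher and 3734 lower of 14223 genes. With replicates 1 and 2 only, 1 rose and 1 fell, against 2711 higher and 2809 lower of 14329 genes. Pdia5 (chromosome 16, 35397312 to 35490873) had 138.2, 133.6 and 143.3 CPM in p21 libraries, 127.0, 131.8 and 126.7 CPM in p16 libraries, and 116.3, 120.4 and 114.9 CPM in empty vector libraries. The 3 groups did not overlap and p21 was the highest. For Pdia5 the log2 fold change was 0.24 ± 0.0376 with p21 (1.18-fold, edgeR adjusted p = 3.05e-04), 0.13 ± 0.0375 with p16 (1.1-fold, edgeR adjusted p = 0.0396) and 0.11 ± 0.0375 in p21 against p16 (edgeR adjusted p = 0.0819, and 0.0373 with the replicate block). Its p16 call was lost without any 1 library other than p21 replicate 2 or 3 (edgeR adjusted p up to 0.167), with library totals alone (edgeR adjusted p = 0.0885) and with replicates 1 and 2 only (edgeR adjusted p = 0.0664).

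Smaller rises were called for 2 of the most abundant isomerase genes. P4hb, which also serves as a subunit of collagen prolyl 4-hydroxylase, averaged 1883.7 ± 48.3 CPM in p21 libraries and 1775.6 ± 21.8 CPM in empty vector libraries (SD, n = 3 each), a log2 fold change of 0.09 ± 0.0309 (edgeR adjusted p = 0.0438). Pdia3, the partner of the lectin chaperones, averaged 1399.4 ± 61.7 CPM in p21 libraries and 1300.2 ± 33.0 CPM in empty vector libraries (SD, n = 3 each), a log2 fold change of 0.11 ± 0.0385 (edgeR adjusted p = 0.0442). The call of P4hb was lost without any 1 library other than p21 replicate 2 (edgeR adjusted p up to 0.162), and the call of Pdia3 without empty vector replicate 2 or 3, p21 replicate 1 or 3 or p16 replicate 1 or 3 (edgeR adjusted p up to 0.165). With replicates 1 and 2 only, P4hb had an edgeR adjusted p of 0.0881 and Pdia3 one of 0.251.

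Pdia6, which encodes the isomerase P5, averaged 592.1 ± 8.04 CPM in p21 libraries, 599.2 ± 18.0 CPM in p16 libraries and 635.8 ± 26.1 CPM in empty vector libraries (SD, n = 3 each). Its log2 fold change was -0.10 ± 0.0356 with p21 (edgeR adjusted p = 0.0368) and about the same size with p16, at -0.09 ± 0.0356 (edgeR adjusted p = 0.149, and 0.0497 with the replicate block). The p21 call was lost without empty vector replicate 1 or 2, p21 replicate 1 or 2 or p16 replicate 1 (edgeR adjusted p up to 0.148).

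Of the 10 ERAD genes, 3 rose and 0 fell with p21 in edgeR, DESeq2 and limma-voom, with 5 at an unadjusted edgeR p under 0.05. By direction these are 30% higher and 0% lower, against 19.8% and 20.1% over all genes tested. The called share in either direction, 30%, is below the 39.9% over all genes tested. Edem3, which encodes a mannose-trimming protein that marks glycoproteins for degradation, averaged 100.4 ± 3.06 CPM in p21 libraries, 90.8 ± 1.79 CPM in p16 libraries and 87.5 ± 0.214 CPM in empty vector libraries (SD, n = 3 each). No library of one group overlapped another. The log2 fold change of Edem3 was 0.20 ± 0.0370 with p21 (1.15-fold, edgeR adjusted p = 0.00106), 0.05 ± 0.0371 with p16 (edgeR adjusted p = 0.391) and 0.14 ± 0.0370 in p21 against p16 (edgeR adjusted p = 0.0235). Os9, a lectin that delivers glycoproteins to the degradation complex, averaged 115.7 ± 5.67 CPM in p21 libraries, 110.3 ± 3.06 CPM in p16 libraries and 102.5 ± 2.87 CPM in empty vector libraries (SD, n = 3 each). Its log2 fold change was 0.18 ± 0.0432 with p21 (1.13-fold, edgeR adjusted p = 0.00628) and 0.11 ± 0.0431 with p16 (edgeR adjusted p = 0.14, and 0.0473 with the replicate block).

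Syvn1, which encodes the ubiquitin ligase HRD1 of that complex, averaged 84.9 ± 7.96 CPM in p21 libraries, 77.4 ± 3.51 CPM in p16 libraries and 74.3 ± 3.74 CPM in empty vector libraries (SD, n = 3 each). The groups overlapped, since p21 replicate 3 lay at 76.6 CPM and empty vector replicate 2 at 76.7 CPM. Syvn1 had a log2 fold change of 0.19 ± 0.0653 with p21 (edgeR adjusted p = 0.0335), lost without empty vector replicate 1 or p21 replicate 1 or 2 (edgeR adjusted p up to 0.139). Sel1l, the partner of HRD1, had a log2 fold change of 0.08 ± 0.0316 with p21 (edgeR adjusted p = 0.0612, and 0.0428 with the replicate block).

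The other ERAD genes were not called with p21 without the block. Edem2 had a log2 fold change of 0.15 ± 0.0682 with p21 (edgeR adjusted p = 0.0938, and 0.0352 with the block) and 0.18 ± 0.0681 in p21 against p16 (edgeR adjusted p = 0.112, and 0.0314 with the block). Herpud1, an ER stress-induced gene whose product joins the HRD1 complex, had a log2 fold change of -0.12 ± 0.0737 with p21 (edgeR adjusted p = 0.21, and 0.0231 with the block) and -0.12 ± 0.0737 in p21 against p16 (edgeR adjusted p = 0.318, and 0.0395 with the block). It had 50.4, 55.3 and 58.3 CPM in p21 libraries, 57.5, 58.4 and 62.4 CPM in p16 libraries, and 53.1, 60 and 65.3 CPM in empty vector libraries, and each p21 library was below the empty vector library of its number. Derl3 stood at 0.133 to 0.295 CPM in p21 libraries, 0.127 to 0.408 CPM in p16 libraries and 0.292 to 0.363 CPM in empty vector libraries. At that level its log2 fold change with p21 had a wide error, at -0.57 ± 0.453 (edgeR adjusted p = 0.349). With p16, 0 of the 10 ERAD genes passed the test in edgeR, DESeq2 or limma-voom, against 11.4% of all genes tested in edgeR. Of the 10, 2 had an unadjusted edgeR p under 0.05.

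The largest rise among the 37 was that of a collagen folding gene, Fkbp14. It encodes the ER prolyl isomerase FKBP22 (chromosome 6, 54577604 to 54597308) and had 71.6, 63.1 and 75.1 CPM in p21 libraries, 59.7, 59.6 and 62.4 CPM in p16 libraries, and 49.5, 49.1 and 53.8 CPM in empty vector libraries. Each p21 library was above each p16 library, and each p16 library above each empty vector library. The log2 fold change of Fkbp14 was 0.46 ± 0.0622 with p21 (1.38-fold, edgeR adjusted p = 9.67e-05), 0.25 ± 0.0623 with p16 (1.19-fold, edgeR adjusted p = 0.0214) and 0.21 ± 0.0619 in p21 against p16 (1.16-fold, edgeR adjusted p = 0.0446). The p16 call was lost without empty vector replicate 1 or 2 or p16 replicate 2 or 3 (edgeR adjusted p up to 0.0872).

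Fkbp10, which encodes the prolyl isomerase FKBP65 that binds procollagen (chromosome 11, 100415697 to 100424824), had 689.2, 667.5 and 640.9 CPM in p21 libraries, 603.7, 611.0 and 601.3 CPM in p16 libraries, and 530.3, 551.8 and 532.4 CPM in empty vector libraries. The 3 groups did not overlap and stood in the same order as for Fkbp14. For Fkbp10 the log2 fold change was 0.31 ± 0.0326 with p21 (1.24-fold, edgeR adjusted p = 1.47e-05), 0.17 ± 0.0326 with p16 (1.12-fold, edgeR adjusted p = 0.00636) and 0.14 ± 0.0325 in p21 against p16 (1.1-fold, edgeR adjusted p = 0.016). Of the 6 p16 calls, that of Fkbp10 alone held without each library in turn. Fkbp10 shares 6.58% and Fkbp14 5.01% of exon bases with a gene on the opposite strand.

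Serpinh1, which encodes the collagen chaperone HSP47, was the exception among the collagen folding genes. It had 2800.6, 2731.7 and 2766.2 CPM in p21 libraries, 2959.2, 3008.6 and 3046.8 CPM in p16 libraries, and 2773.8, 2948.0 and 2938.2 CPM in empty vector libraries. All p21 libraries were below all p16 libraries, and the empty vector libraries spanned the space between and overlapped the p21 range. The log2 fold change of Serpinh1 was -0.06 ± 0.0332 with p21 (edgeR adjusted p = 0.163, and 0.0153 with library totals alone), 0.06 ± 0.0332 with p16 (edgeR adjusted p = 0.299) and -0.12 ± 0.0332 in p21 against p16 (edgeR adjusted p = 0.0337).

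Beside these values, the summed fibroblast markers, which include 3 collagen genes, stood at 31335 to 33251.3 CPM in p21 libraries, 31616.6 to 34163.5 CPM in p16 libraries and 27984.7 to 31791.9 CPM in empty vector libraries, with 4 of 10 higher and 2 lower with p21. Marker calls with p21 are to be read against 19.8% higher and 20.1% lower over all genes tested. Summed macrophage and leukocyte markers stood at 37 to 50.4 CPM in p21 libraries, 27.4 to 49.4 CPM in p16 libraries and 21.8 to 34.0 CPM in empty vector libraries, with 4 of 9 tested higher with p21. The estimates of all 9 were above 0 with p21. Summed skeletal muscle markers stood at 586.2 to 673.8 CPM in p21 libraries, 326.8 to 345.3 CPM in p16 libraries and 217.4 to 225.5 CPM in empty vector libraries, and Ckm was at 0 in all. Of the 3 muscle markers tested, 2 were higher with p21 and 2 with p16. Summed epithelial markers stood at 16 to 16.5 CPM in p21 libraries, 13.2 to 14.5 CPM in p16 libraries and 12.9 to 15.7 CPM in empty vector libraries, with 1 of 2 tested higher with p21. Summed endothelial markers stood at 7.61 to 9.69 CPM in p21 libraries, 5.01 to 7.54 CPM in p16 libraries and 5.22 to 6 CPM in empty vector libraries, with 0 of 4 tested called with p21. Summed plasma and B cell markers stood at 208.3 to 221.5 CPM in p21 libraries, 221.2 to 231.7 CPM in p16 libraries and 218.1 to 229.1 CPM in empty vector libraries. Of these markers, 1 of 7 passed the filter on low counts. The part of these in the differences was not tested. In bulk RNA, fewer cells of a type and less RNA per cell cannot be told apart.

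The last of the 37, Sec61b, a subunit of the channel through which proteins enter the ER, averaged 104.6 ± 4.13 CPM in p21 libraries, 103.5 ± 1.75 CPM in p16 libraries and 103.3 ± 4.02 CPM in empty vector libraries (SD, n = 3 each). It did not pass the test in any comparison. Apart from Derl3, the 19 genes not called with p21 had log2 fold changes between -0.12 and 0.15, and the standard errors of the 36 genes were 0.0277 to 0.0737.

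**Figure D3:**
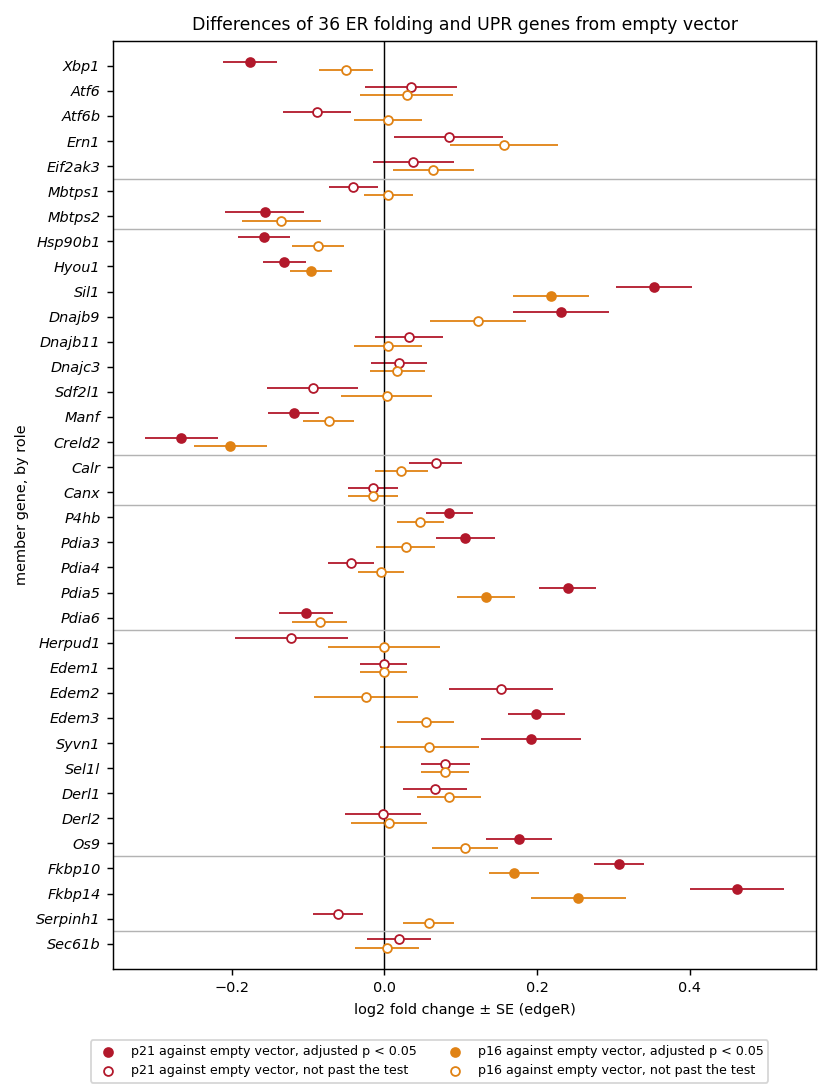
Log2 fold change ± SE (edgeR, 3 libraries per group) of 36 genes by role for p21 against empty vector (red) and p16 against empty vector (orange), filled where the adjusted p is under 0.05; Derl3, with a standard error of 0.453 for p21, is left out. The p21 values run from -0.27 for Creld2 to 0.46 for Fkbp14, and most other genes lie within 0.2 of 0.

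The calls differed in how well they held. Of the 17 p21 calls, 11 held without each of the 9 libraries in turn and 10 in every alternative tried: Xbp1, Hsp90b1, Hyou1, Sil1, Creld2, Pdia5, Edem3, Os9, Fkbp10 and Fkbp14. None of the 5 calls between p21 and p16 held without each library in turn. In those settings 1074 to 1810 of all genes passed, against 1858 with all libraries. The highest edgeR adjusted p with 1 library left out was 0.0746 for Fkbp10 (without p21 replicate 1), 0.107 for Edem3 (without p21 replicate 1), 0.113 for Xbp1 (without p16 replicate 3), 0.128 for Serpinh1 (without p16 replicate 3) and 0.14 for Fkbp14 (without p21 replicate 1). No called value among the 37 genes changed sign in any alternative.

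Set beside the promoters printed above, ERSE was present in 3 of the 5 genes with a promoter entry that fell with p21 (Creld2, Hsp90b1 and Pdia6), in 1 of 8 that rose (Syvn1) and in 4 of 18 that were not called (Calr, Canx, Derl3 and Dnajc3). Hyou1 and Manf, which fell, and Sil1 and Fkbp10, which rose, had no promoter entry. With ERSE-II counted as well, matches were in 3 that fell, 1 that rose and 6 that were not called. A link between ERSE and the direction of change was not tested. Hsp90b1 carried 2 matches, from 212 to 194 and from 107 to 89 bases before the start. The match in Creld2 lay 126 to 108 bases before the start, that in Pdia6 98 to 80 bases and that in Syvn1 44 to 26 bases. A match is a string of letters in this window, not a measure of binding.

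Genes of the same pathway outside the 37 were counted in 10 lists, to be read against 19.8% higher and 20.1% lower with p21 and 5.8% higher and 5.56% lower with p16 over all genes tested. The list of collagen folding and modification enzymes had 11 of 18 genes higher and 0 lower with p21 (median log2 fold change 0.15, against 0.00 over all genes tested), with 0 lower also by DESeq2 and limma-voom and 11 at an unadjusted edgeR p under 0.05. With library totals alone, 6 were higher. With single libraries left out, 6 to 11 were higher, fewest without empty vector replicate 1 (6) and without empty vector replicate 2 or p21 replicate 1 (7 each). Glt25d1 (older symbol of Colgalt1), a collagen galactosyltransferase, averaged 353.8 CPM in p21 libraries and 291.6 CPM in empty vector libraries, a log2 fold change of 0.28 ± 0.0361 (edgeR adjusted p = 7.04e-05). Fkbp9, another ER prolyl isomerase, averaged 697.3 CPM in p21 libraries and 598.7 CPM in empty vector libraries (0.22 ± 0.0324, edgeR adjusted p = 1.94e-04). Lepre1 (older symbol of P3h1), a collagen prolyl 3-hydroxylase, averaged 198.4 CPM in p21 libraries and 170.3 CPM in empty vector libraries (0.22 ± 0.033, edgeR adjusted p = 2.1e-04). With p16, 8 of 18 were higher and 0 lower (median 0.15), 0 lower also by DESeq2 and limma-voom, with 11 at an unadjusted edgeR p under 0.05. The p16 count was 1 without empty vector replicate 1 or p16 replicate 2, 4 without p16 replicate 3, and 6 to 8 without any other library. It was 11 with the replicate block. P4ha1, a catalytic subunit of prolyl 4-hydroxylase, had the smallest adjusted p of this list with p16, at 545.6 CPM in p16 libraries and 446.5 CPM in empty vector libraries (0.29 ± 0.0425, edgeR adjusted p = 0.00145).

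Genes of calcium handling in the ER were higher with p21 in 11 of 15 and lower in 0 (median log2 fold change 0.16), against 19.8% higher and 20.1% lower over all genes tested, with 0 lower also by DESeq2 and limma-voom and 12 at an unadjusted edgeR p under 0.05. The count of higher genes was 7 with library totals alone and 7 to 11 with single libraries left out, fewest without p21 replicate 1. Rcn2, a calcium-binding protein of the ER lumen, averaged 215.1 CPM in p21 libraries and 172.6 CPM in empty vector libraries (0.32 ± 0.0394, edgeR adjusted p = 5.17e-05). Stim2, a sensor of calcium in the ER, averaged 39.2 CPM in p21 libraries and 33.6 CPM in empty vector libraries (0.22 ± 0.0475, edgeR adjusted p = 0.00247). With p16, 2 of 15 were higher, 6 with the replicate block, 4 without p21 replicate 3, and 1 without p21 replicate 1, any empty vector replicate or any p16 replicate. Among the 2 was Rcn2 at 197.4 CPM in p16 libraries and 172.6 CPM in empty vector libraries (0.19 ± 0.0394, edgeR adjusted p = 0.00869). Further ERAD genes were higher with p21 in 9 of 19 and lower in 1 (median 0.11), with 5 higher under library totals alone and 6 without empty vector replicate 2. They included the ubiquitin ligase gene Rnf185 (0.23 ± 0.0435, edgeR adjusted p = 0.00111), the ubiquitin-conjugating enzyme gene Ube2g2 (0.21 ± 0.039, edgeR adjusted p = 0.00112) and Herpud2 (0.30 ± 0.0619, edgeR adjusted p = 0.00219).

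**Figure D4:**
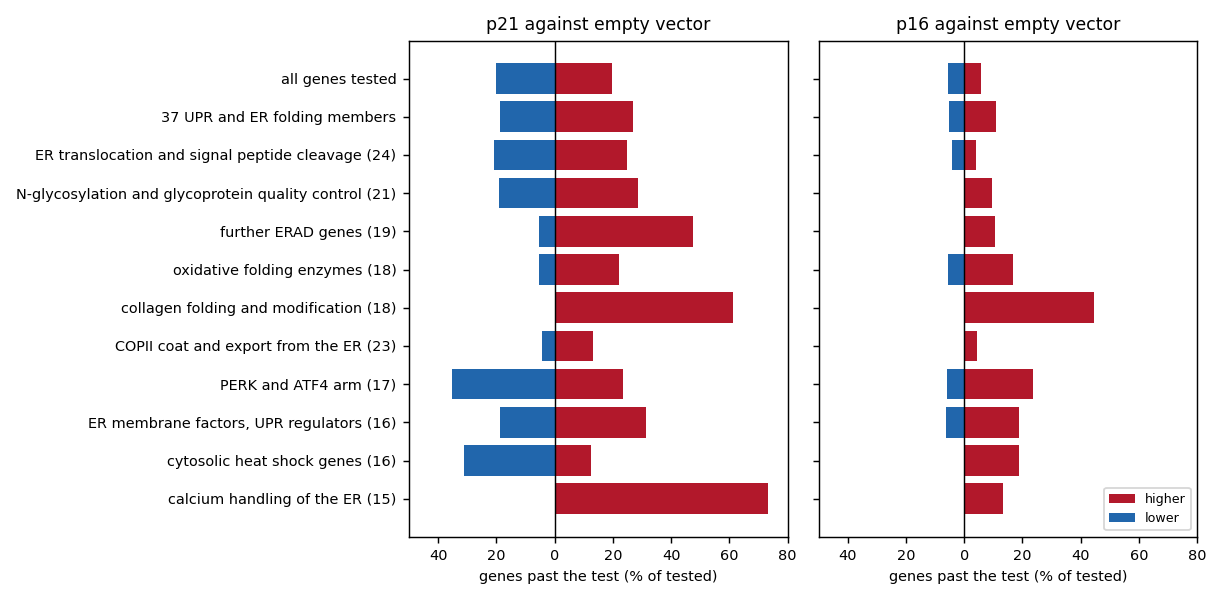
Percent of tested genes that passed the test as higher (red, to the right) or lower (blue, to the left) with p21 and with p16 against empty vector, for all genes tested, the 37 genes and 10 pathway lists, with the number tested in brackets. With p21, collagen folding (11 of 18) and calcium handling (11 of 15) lie to the right, and the 37 genes lie near all genes tested.

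The remaining lists moved in both directions with p21. Translocation and signal peptide cleavage had 6 of 24 higher and 5 lower, with the translocon-associated gene Ssr1 lower (-0.21 ± 0.0294, edgeR adjusted p = 1.29e-04) and the signal recognition particle genes Srp68 lower (-0.23 ± 0.0378, edgeR adjusted p = 4.18e-04) and Srp14 higher (0.27 ± 0.0461, edgeR adjusted p = 6.39e-04). N-glycosylation and glycoprotein quality control had 6 of 21 higher and 4 lower. Its largest rise was Mcfd2, a subunit of a cargo receptor for export from the ER, at 202.5 CPM in p21 libraries and 143.3 CPM in empty vector libraries (0.50 ± 0.036, edgeR adjusted p = 6.86e-07). Prkcsh, the beta subunit of glucosidase II, also rose (0.31 ± 0.03, edgeR adjusted p = 6.94e-06). Oxidative folding enzymes had 4 of 18 higher and 1 lower, with the sulfhydryl oxidase gene Qsox1 at 717.6 CPM in p21 libraries and 522.9 CPM in empty vector libraries (0.46 ± 0.0318, edgeR adjusted p = 5.33e-07) and the ER peroxiredoxin gene Prdx4 lower (-0.24 ± 0.0362, edgeR adjusted p = 2.07e-04). With p16, Ero1l (older symbol of Ero1a), the oxidase that recharges disulfide isomerases, was higher (0.23 ± 0.0456, edgeR adjusted p = 0.00708). COPII and export genes had 3 of 23 higher and 1 lower, with the smallest adjusted p for Ergic1 (0.29 ± 0.0346, edgeR adjusted p = 3.41e-05). With p16, the genes that rose were 1 of 24 for translocation, 2 of 21 for N-glycosylation, 2 of 19 for further ERAD, 3 of 18 for oxidative folding, 1 of 23 for COPII and export, and 3 of 16 for cytosolic heat shock. In these lists, 1 translocation gene and 1 oxidative folding gene were lower with p16. With single libraries left out, the higher counts were 0 to 2 for translocation, 0 to 2 for further ERAD and 2 to 3 for oxidative folding. They were then 1 to 3 for cytosolic heat shock, 2 for N-glycosylation and 1 for COPII and export.

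The PERK and ATF4 arm had 4 of 17 higher and 6 lower with p21 (median log2 fold change -0.07), against 19.8% higher and 20.1% lower over all genes tested, and 4 higher and 1 lower with p16, against 5.8% and 5.56%. Nupr1, a stress-induced nuclear protein, averaged 149.2 CPM in p21 libraries and 95.9 CPM in empty vector libraries (0.64 ± 0.0705, edgeR adjusted p = 2.06e-05). Ppp1r15a, the stress-induced subunit that directs dephosphorylation of eIF2 alpha, rose (0.40 ± 0.0484, edgeR adjusted p = 4e-05), whereas its constitutive counterpart Ppp1r15b fell (-0.25 ± 0.0361, edgeR adjusted p = 1.67e-04). Both Nupr1 (0.41 ± 0.0705, edgeR adjusted p = 0.00337) and Ppp1r15a (0.27 ± 0.0484, edgeR adjusted p = 0.00457) were also higher with p16. Ddit3 averaged 26 CPM in p21, 23.3 CPM in p16 and 19 CPM in empty vector libraries, and was higher with p16 (0.30 ± 0.0703, edgeR adjusted p = 0.0188). Its p16 call was lost without empty vector replicate 1 or 2 or p16 replicate 2 or 3 (edgeR adjusted p up to 0.0774). In p21 against p16, Ddit4 was lower, at 70.8 CPM in p21 libraries and 82.6 CPM in p16 libraries (-0.22 ± 0.0418, edgeR adjusted p = 0.00415). Empty vector libraries averaged 73.2 CPM of Ddit4, nearer to the p21 than to the p16 mean.

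ER membrane transcription factors and UPR regulators had 5 of 16 higher and 3 lower with p21, and 3 higher and 1 lower with p16. Creb3, an ER-anchored transcription factor, averaged 102.2 CPM in p21 libraries, 86.7 CPM in p16 libraries and 72.2 CPM in empty vector libraries. Its log2 fold change was 0.50 ± 0.0367 with p21 (edgeR adjusted p = 7.45e-07), 0.26 ± 0.0367 with p16 (edgeR adjusted p = 0.00103) and 0.24 ± 0.0365 in p21 against p16 (edgeR adjusted p = 0.00121). Wfs1, an ER membrane protein, rose by 0.50 ± 0.0577 with p21 (edgeR adjusted p = 2.99e-05), and Nfyc, a subunit of the NF-Y factor that binds CCAAT, fell by 0.34 ± 0.0479 on the log2 scale (edgeR adjusted p = 1.24e-04). Of cytosolic heat shock genes, 2 of 16 were higher and 5 lower with p21. The 2 higher genes were Bag3 (0.36 ± 0.038, edgeR adjusted p = 1.52e-05) and Dnajb4 (0.37 ± 0.0394, edgeR adjusted p = 1.44e-05), and the lower ones included Hsp90ab1 (-0.20 ± 0.0307, edgeR adjusted p = 2.18e-04). Hsph1 was lower in p21 against p16, at 95.0 CPM in p21 libraries and 123.4 CPM in p16 libraries (-0.38 ± 0.0382, edgeR adjusted p = 5.71e-05). Its empty vector mean lay between them, at 110.5 CPM.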

How the data were processed

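RNA was column-extracted and libraries were made with the TruSeq RNA Library Prep Kit v2, per the labels. Per the submitters' processing notes, reads were handled with TopHat2 2.0.14, Bowtie2 2.2.6 and featureCounts 1.4.6 of Subread on mm10. The authors deposited raw counts per gene symbol, with no normalization. The annotation and the strand setting are not given in the sources used here, and the kit keeps no strand. Libraries were grouped by their lentivirus labels.

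The counts were modelled with edgeR 4.0.16 in R 4.3.3 (filterByExpr, minimum count 10, minimum total 15, TMM, 1 quasi-likelihood fit by group over all 9 libraries, 6 residual degrees of freedom). The F test is two-sided, with Benjamini-Hochberg adjustment over 14223 genes and a threshold of 0.05. The standard error is the absolute log2 fold change over the square root of F. The biological coefficient of variation was 7.3%, and libraries of a group differed by more than sampling noise (chi-squared per degree of freedom 5.26 to 16.8). Alternatives were RLE size factors, library totals, no filter, DESeq2 1.42.0, limma-voom (limma 3.58.1), the 2 groups only, the replicate block, replicates 1 and 2 only, the delivered genes left out, and each library left out. The fit was tested on simulated data.

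Same-numbered libraries correlated at r = 0.126 to 0.361 across genes after removal of group means (9 pairs). Others correlated at -0.246 to 0.106 (18 pairs), and every negative value involved replicate 3. Among replicates 1 and 2, r was 0.126 to 0.202 for the same number and 0.048 to 0.106 for different numbers. The ranges therefore mostly reflect how replicate 3 stood apart, and show little on the pairing of replicates 1 and 2. The replicate numbers were taken to pair the libraries in the block alternative only. The labels do not explain them, and the main values use no block.

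The genes, lists and rules were chosen with earlier results of these data known. Values in every library are given for sensors and proteases and for genes called with an absolute log2 fold change of at least 0.3. Those of Creld2, Hsp90b1, Hyou1, Pdia5, Herpud1 and Serpinh1 were added after their values were seen. In each pathway list, up to 3 genes with the smallest adjusted p could be named. No set test was run. Coordinates and exon lengths are from GENCODE M21, promoters from RefSeq (GRCm38.p6). Protein sequence features were not analysed here. Figures used Python 3.11.15, pandas 2.3.3 and matplotlib 3.10.9.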

Additional observations from a re-analysis of the deposited data

How the results depend on the processing

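With library totals alone, 11 of the 37 genes were lower with p21 and 4 with p16, against 7 and 2. Without the filter on low counts 1 was lower with p16 and 1 in p21 against p16, against 2 each. In the fit of only the 2 groups compared, 1 was lower in p21 against p16. With replicates 1 and 2 only, 1 was lower with p16. The replicate block gave 6856 genes with p21, against 5681, 3044 with p16, against 1616, and 3214 in p21 against p16, against 1858. Among the 37 it gave 13 higher and 8 lower with p21, 5 higher and 4 lower with p16, and 5 higher and 3 lower in p21 against p16. With each library left out in turn, 4617 to 5659 genes passed with p21, 759 to 1894 with p16 and 1074 to 1810 in p21 against p16. Of the 37, 7 to 10 were then higher and 5 to 7 lower with p21, 1 to 4 higher and 0 to 2 lower with p16, and 0 to 3 higher and 0 to 1 lower in p21 against p16. The p16 gene count was lowest without p16 replicate 2. The cause of these shifts was not tested, beyond the smaller number of libraries. RLE size factors, DESeq2, limma-voom and leaving out the delivered genes kept each count of the 37 within 1.5 times.

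Of 57 fold changes of the 37 genes under alternatives (1026 values), 903 kept direction and side of the threshold, 101 lost and 19 gained the call, and 3 changed sign, none of a called gene: Atf6 (-0.015) and Eif2ak3 (-0.011) with p21 under library totals alone, and Atf6 without p21 replicate 1, within a range of -0.016 to 0.087 with single libraries left out. Depth limits mainly Derl3, at 0.127 to 0.408 CPM.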
